A study of Mus musculus with 18 samples.

Results

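Transcripts of 10 genes that carry peptides to MHC class I molecules were followed in mouse eosinophils stimulated in the presence of apoptotic cells (ACs). They were the rows of the normalized count table whose identifiers belong to H2-K1, H2-D1, B2m, Tap1, Tap2, Tapbp, Nlrc5, Psmb8, Psmb9 and Psmb10, that is 10 of 54446 genes, and all 10 were measured in every library. The rule names the genes and uses no measured value. Eosinophils labelled C57BL/6 came from a peritoneal wash of Il5Tg animals, whose Il5 transgene makes them overproduce these cells, and were depleted of T and B cells with antibody-coated beads. All cultures of the 6 groups held 5 ACs per eosinophil for 18 h. As ACs served wild-type thymocytes in which dexamethasone had induced death. In the Type 1 experiment, cultures with ACs received nothing else, bacteria (E. coli + ACs), IFN-γ (IFN-γ + ACs), or IFN-γ followed by bacteria (IFN-γ + E. coli + ACs, in short both stimuli). In the IL-4 experiment they received nothing else or IL-4 (IL-4 + ACs). Each group had 3 libraries, and the eosinophils were purified again on anti-Siglec-F beads before RNA extraction. No sex and no age of the eosinophil donors was given in the sources used here, and the labels do not say whether replicates came from separate mice. The methods call the replicates of the study biological in general without tying that to these libraries, so p-values measure the spread between these libraries.

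Nucleated cells show peptides of their own proteins to CD8+ T cells on class I molecules, each made of a heavy chain and the invariant light chain β2-microglobulin. The proteasome cuts proteins into peptides, the TAP transporter pumps them into the endoplasmic reticulum, and tapasin holds the transporter and an empty class I molecule together while a peptide is loaded. IFN-γ is known to raise this pathway in many cell types and to exchange the catalytic subunits of the proteasome for those of the immunoproteasome.

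Depth ranged from 779421 to 7782072 reads on genes per library, with a median of 4461121. Both replicate 3 libraries of the IL-4 experiment were shallow (849705 reads with IL-4 + ACs and 779421 with ACs), and 3 reads there stood for normalized counts of 15.42 and 16.08. Of 8 eosinophil marker genes none was at 0 throughout a group. Their summed normalized counts were 7598 to 7996 with ACs and 4856 to 5678 with IFN-γ + ACs, and Siglecf fell by 0.99 on the log2 scale (SE 0.10, limma adjusted p = 5.5e-07). Of 12 thymocyte markers, which include defining genes such as Cd3e and Rag1, the sum was 45.5 to 180 in all libraries. Rag2 was at 0 with ACs in both experiments, Rag1 with E. coli + ACs, and Rag1 and Dntt with both stimuli. In bulk RNA, fewer cells of a type and less RNA per cell cannot be told apart.

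Of the 10 genes, 7 lie on chromosome 17 between 33915899 and 35267499 in GRCm38, which is the mouse MHC. B2m is on chromosome 2, and Nlrc5 and Psmb10 are on chromosome 8. Promoter windows of 300 bases (250 before to 50 after the start) were held by RefSeq (GRCm38.p6) for 8 of them, and none was at hand for Nlrc5 (chr8:94434356-94527272, plus strand) and Tap2 (chr17:34203527-34216321, plus strand). The windows below are those of the heavy chains, their light chain and a chain of the transporter. A link between the windows and the fold changes was not tested. Those of H2-K1 (chr17:34000298-34000597, minus strand) and H2-D1 (chr17:35262844-35263143, plus strand) were 90.4% identical over 228 aligned positions. Capitals mark matches to the NF-κB consensus in H2-K1, H2-D1 and B2m (chr2:122147437-122147736, plus strand), and to GAAA, any 2 bases and GAAA, an interferon response pattern, in B2m. The Tap1 window (chr17:34187306-34187605, plus strand) holds neither.
H2-K1: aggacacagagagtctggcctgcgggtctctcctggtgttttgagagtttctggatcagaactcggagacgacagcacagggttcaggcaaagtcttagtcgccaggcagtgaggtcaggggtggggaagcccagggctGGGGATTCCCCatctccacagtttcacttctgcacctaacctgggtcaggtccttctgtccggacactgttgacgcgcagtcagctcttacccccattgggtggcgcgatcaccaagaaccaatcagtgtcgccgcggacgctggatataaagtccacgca
H2-D1: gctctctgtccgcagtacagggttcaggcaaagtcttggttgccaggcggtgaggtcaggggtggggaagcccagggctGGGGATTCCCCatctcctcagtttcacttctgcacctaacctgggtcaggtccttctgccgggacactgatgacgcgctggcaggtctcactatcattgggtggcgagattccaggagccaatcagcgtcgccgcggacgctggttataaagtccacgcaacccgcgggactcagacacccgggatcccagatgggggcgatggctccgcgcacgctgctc
B2m: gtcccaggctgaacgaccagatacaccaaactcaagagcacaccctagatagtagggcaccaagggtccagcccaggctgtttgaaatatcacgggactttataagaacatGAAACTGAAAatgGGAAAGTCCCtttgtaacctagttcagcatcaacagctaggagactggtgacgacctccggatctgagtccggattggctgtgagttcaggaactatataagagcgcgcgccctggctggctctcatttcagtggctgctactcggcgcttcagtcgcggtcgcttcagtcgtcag
Tap1: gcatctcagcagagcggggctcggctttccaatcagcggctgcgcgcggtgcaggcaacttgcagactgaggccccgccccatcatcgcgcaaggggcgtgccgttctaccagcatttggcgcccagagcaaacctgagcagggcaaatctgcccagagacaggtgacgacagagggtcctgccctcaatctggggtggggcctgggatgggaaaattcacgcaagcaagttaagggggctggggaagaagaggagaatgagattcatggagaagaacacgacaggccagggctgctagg

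Exact matches were read on both strands, so a site that varies from a pattern was not marked. A window without a match may still hold such a variant. The interferon response pattern was in 3.44% of 32851 RefSeq windows and, among the 8, in B2m alone, at position -139 from the start. The NF-κB consensus was in 8.46% of windows and in 3 of the 8, at position -126 of B2m, -111 of H2-K1 and -171 of H2-D1. In H2-K1 and H2-D1, 2 overlapping matches form the stretch GGGGATTCCCC. TTCNNNGAA, the pattern of STAT sites, was in 8.3% of windows and in Psmb8 alone (TTCCCAGAA at -97). TGACG, part of the class I X2 box, was in 20.8% of windows and in 5 of the 8 (B2m, H2-D1, H2-K1, Psmb9 and Tap1). CCAAT, the pattern of NF-Y, was in 37.4% and in 6 of the 8. Tap1 and Psmb9 are read away from each other from a shared region, and their windows have 275 bases in common. These letters are descriptions of the windows only, and binding was not measured.

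IFN-γ + ACs raised 8 of the 10 transcripts at least 1.5-fold over ACs (limma, adjusted p under 0.05), against 11.4% of the 10166 genes tested called higher and 9.96% lower. All 10 lay above the ACs libraries without overlap, as did 22.6% of all genes tested, with 20.3% below. The median change of the 10 was 1.01 on the log2 scale and that of all tested genes was 0. With both stimuli, 9 of 10 rose (14.7% of genes tested called higher, 17.2% lower), all 10 lay above without overlap (23.9% of genes above, 24.8% below), and the median change was 1.33 against -0.05. With E. coli + ACs none was called higher (5.05% of genes tested) or lower (5.25%), and with IL-4 + ACs none was called higher (0.74%) or lower (0.347%). The 3 Type 1 comparisons share their ACs libraries. As a share of all normalized counts, the 10 genes made up 1.54% to 1.68% with ACs, 2.1% to 2.43% with IFN-γ + ACs and 2.24% to 2.36% with both stimuli.

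**Figure D1:**
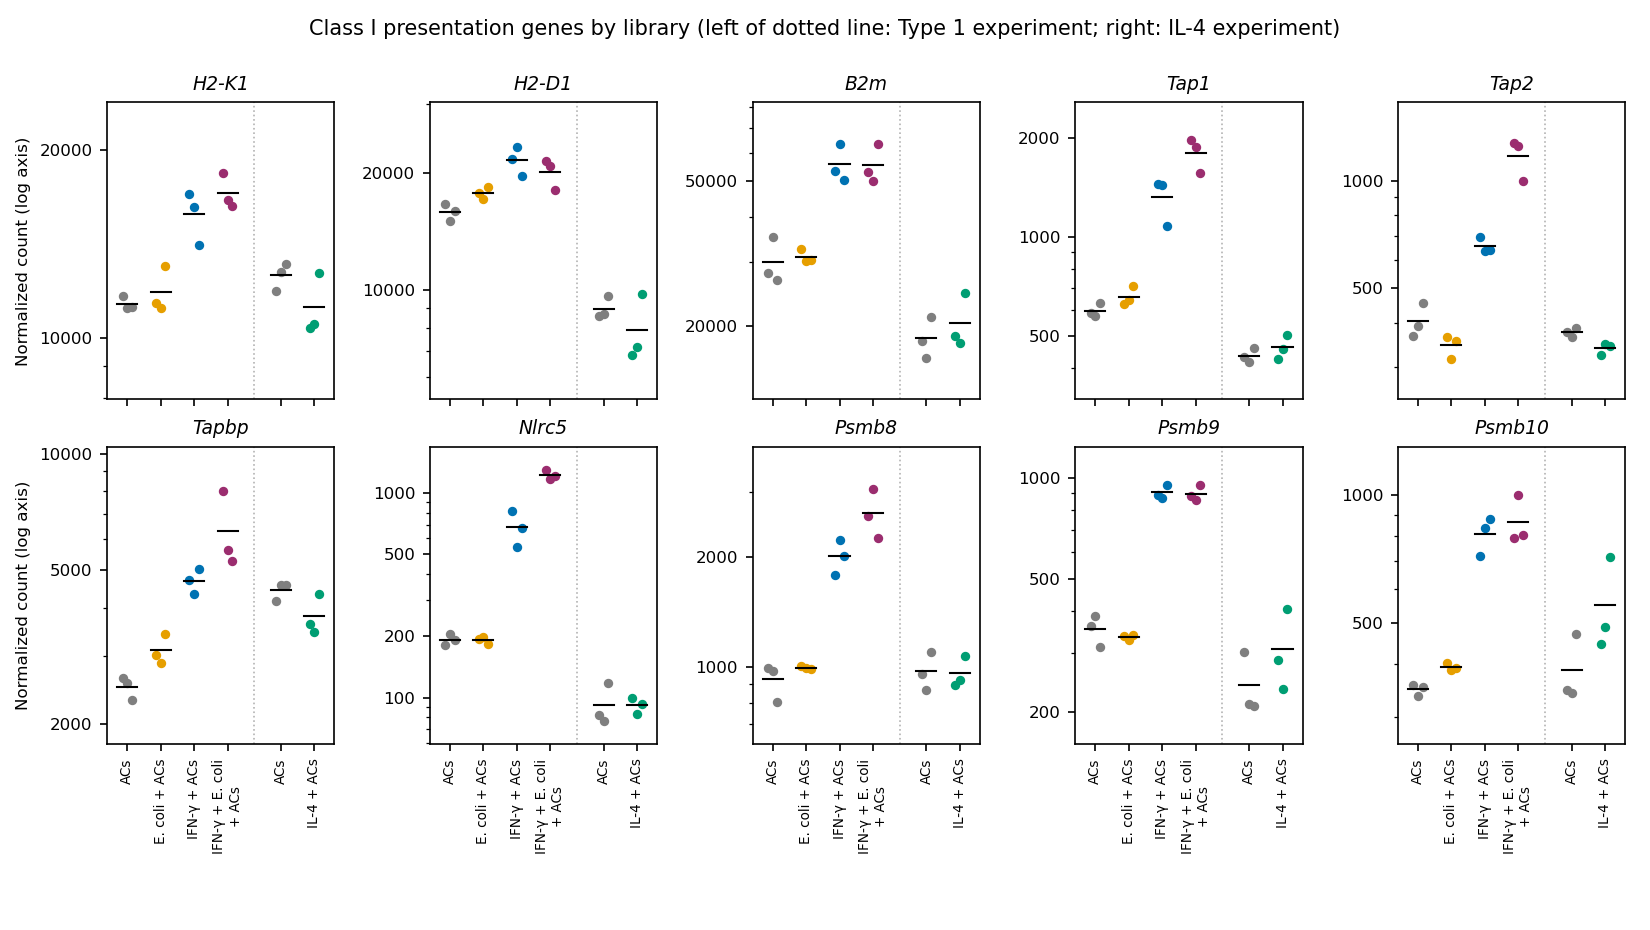
Normalized counts (log axis) of the 10 genes in all 18 libraries by group, with a point per library and a line at each group mean of 3. The IFN-γ + ACs and IFN-γ + E. coli + ACs libraries lie above those with ACs in every panel, while IL-4 + ACs libraries overlap their own ACs for all genes but Tap2.

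Heavy chains bind the peptide and carry it to the surface. H2-K1, which encodes the K heavy chain, had normalized counts of 11654, 11157 and 11216 with ACs, 17014, 16187 and 14088 under IFN-γ + ACs, and 18325, 16629 and 16278 with both stimuli. Both IFN-γ groups stood above ACs and overlapped each other. The log2 change was 0.47 with IFN-γ (SE 0.11, limma adjusted p = 0.0023), short of 1.5-fold, and 0.59 with IFN-γ + E. coli (SE 0.11, limma adjusted p = 0.0002). The latter was just past 1.5-fold. It fell short, at 0.54 to 0.58, when ACs replicate 2 or 3 or IFN-γ + E. coli replicate 1 was left out, and at 0.45 after rescaling to a common upper quartile.

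H2-D1, which encodes the D heavy chain, had 16606, 15064 and 15934 with ACs, 21715, 23303 and 19651 under IFN-γ + ACs, and 21438, 20842 and 18103 with both stimuli. All IFN-γ libraries were above all ACs libraries, yet the change was the smallest of the 10 in both comparisons. It was 0.44 on the log2 scale with IFN-γ (SE 0.10, limma adjusted p = 0.0038) and 0.34 with IFN-γ + E. coli (SE 0.10, limma adjusted p = 0.015), both below 1.5-fold. Class I heavy chains are near-copies of each other and reads that map to several places were not counted. Of 351 stretches of 50 bases in the last 400 bases of the longest coding transcript, 2 of H2-K1 were also in H2-D1. For H2-D1, 43 were also in other genes, Adsl and Kcnk4 among them, and its values are uncertain to that extent. The other 8 genes shared none.

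B2m encodes β2-microglobulin, which all class I heavy chains need to fold. Its normalized counts were 27891, 35126 and 26675 with ACs, 53424, 63540 and 50336 under IFN-γ + ACs, and 53222, 50027 and 63385 with both stimuli. The 2 IFN-γ groups overlapped fully and both were clear of ACs. B2m rose by 0.90 with IFN-γ (SE 0.13, limma adjusted p = 3e-05) and by 0.90 with IFN-γ + E. coli (SE 0.13, limma adjusted p = 2e-05) on the log2 scale. It took 0.70% to 0.88% of all normalized counts with ACs and 1.11% to 1.36% with IFN-γ + ACs. The light chain thus changed 1.87-fold with IFN-γ, while the heavy chains changed 1.39-fold (H2-K1) and 1.36-fold (H2-D1). The difference between these changes was not tested.

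Tap1 and Tap2 encode the paired chains of the peptide transporter. Tap1 had 587, 574 and 632 with ACs, 1446, 1434 and 1077 under IFN-γ + ACs, and 1970.0, 1875 and 1563 with both stimuli. The 3 groups were in steps with no overlap. Tap1 rose by 1.13 (SE 0.13, limma adjusted p = 2e-06) and 1.58 (SE 0.13, limma adjusted p = 1.5e-08) on the log2 scale. Tap2 had 368, 391 and 454 with ACs, 695, 636 and 640.2 under IFN-γ + ACs, and 1276, 1252 and 998 with both stimuli. Its 3 groups were also apart. Tap2 rose by 0.70 with IFN-γ (SE 0.13, limma adjusted p = 0.0004), against 1.13 for Tap1, and by 1.53 with both stimuli (SE 0.13, limma adjusted p = 2.2e-08), against 1.58. Differences between the genes were not tested.

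Tapbp encodes tapasin. It had 2626, 2553 and 2307 with ACs, 4709, 4334 and 5028 under IFN-γ + ACs, and 8006, 5624 and 5268 with both stimuli. The groups did not overlap, although 1 IFN-γ + E. coli library was far above the others. Tapbp rose by 0.91 (SE 0.13, limma adjusted p = 4e-05) and 1.31 (SE 0.13, limma adjusted p = 2.9e-07) on the log2 scale. It shares 3422 bases on the same strand with Zbtb22, whose mean normalized count was 54.3.

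Nlrc5 encodes the class I transactivator, a regulator of the promoters of heavy chains, B2m, Tap1 and Psmb9. It had 179.7, 205 and 190.0 with ACs, 819, 544 and 671 under IFN-γ + ACs, and 1289, 1173 and 1203 with both stimuli. The 3 groups were well apart. Its changes were the largest of the 10, with a rise of 1.80 (3.49-fold, SE 0.14, limma adjusted p = 1.1e-08) and of 2.67 (6.36-fold, SE 0.14, limma adjusted p = 2.8e-11) on the log2 scale. A lincRNA on the other strand, 9330175E14Rik, overlaps it by 748 bases and had a mean of 94.03 normalized counts.

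Psmb8, Psmb9 and Psmb10 encode the catalytic subunits of the immunoproteasome. Psmb8 had 998, 981 and 805 with ACs, 1781, 2218 and 2009 under IFN-γ + ACs, and 2583, 3059 and 2249 with both stimuli. Its groups did not overlap, and it rose by 1.11 (SE 0.13, limma adjusted p = 1.9e-06) and 1.5 (SE 0.13, limma adjusted p = 2.4e-08) on the log2 scale. Psmb9 had 362, 388 and 313 with ACs, 889, 872 and 950.1 under IFN-γ + ACs, and 882, 856 and 951 with both stimuli. The IFN-γ groups were nearly the same and far above ACs, with rises of 1.35 (SE 0.12, limma adjusted p = 4.5e-08) and 1.34 (SE 0.12, limma adjusted p = 3.2e-08). Psmb10 had 358, 337 and 353 with ACs, 720.2, 837 and 878 under IFN-γ + ACs, and 791, 1000.4 and 807 with both stimuli. Here too the IFN-γ groups overlapped, with rises of 1.21 (SE 0.12, limma adjusted p = 4.7e-07) and 1.3 (SE 0.12, limma adjusted p = 1.1e-07). Tap1 and Psmb9, which are read away from each other, overlap by 212 bases at their starts.

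**Figure D2:**
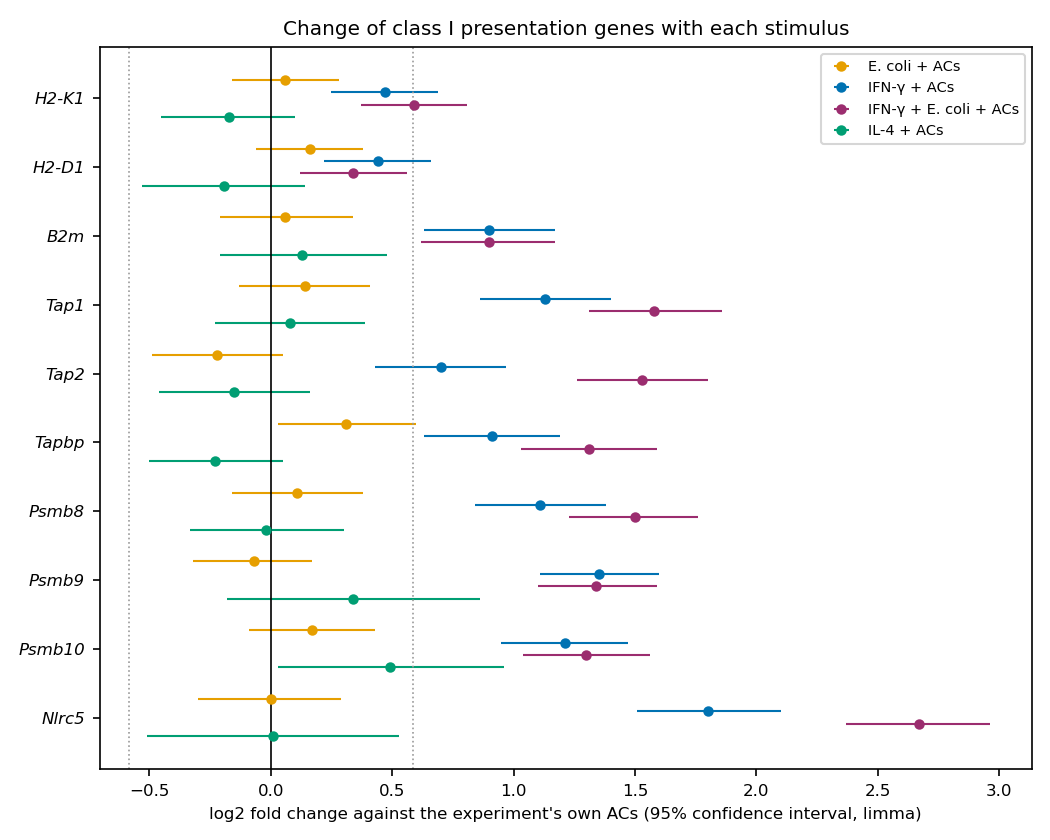
Log2 fold change of each gene against the ACs of its own experiment for 4 stimuli, with 95% confidence intervals from limma, and dotted lines at 1.5-fold. Nlrc5 moved most with IFN-γ (1.80) and IFN-γ + E. coli (2.67), the heavy chains moved least (0.44 and 0.47 with IFN-γ), and the intervals for E. coli cross 0 for all but Tapbp.

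Each immunoproteasome subunit takes the place of a constitutive one, so each was set against the subunit it replaces within the same library, as a log2 ratio that needs no scaling between libraries. Psmb8 replaces Psmb5, the chymotrypsin-like subunit. The Psmb8 to Psmb5 log2 ratio was 0.14 to 0.35 with ACs, -0.50 to -0.47 with E. coli + ACs, 0.56 to 0.87 with IFN-γ + ACs and 1.39 to 1.5 with both stimuli. The E. coli libraries lay below ACs and both IFN-γ groups above, with differences of -0.71, 0.51 and 1.22. Psmb9 replaces Psmb6, and its ratio changed by -0.59, 0.76 and 1.25, again without overlap with ACs. Psmb10 replaces Psmb7, and its ratio changed by -0.18, where E. coli and ACs overlapped, 0.46 and 1.23. With IL-4 + ACs the 3 ratios changed by -0.16, 0.20 and 0.56 and overlapped their own ACs (exact two-sided permutation p = 0.2, 0.5 and 0.2). For each of the 8 Type 1 changes without overlap the exact two-sided permutation p was 0.1, the smallest that 3 against 3 libraries allow, so none can pass 0.05.

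**Figure D3:**
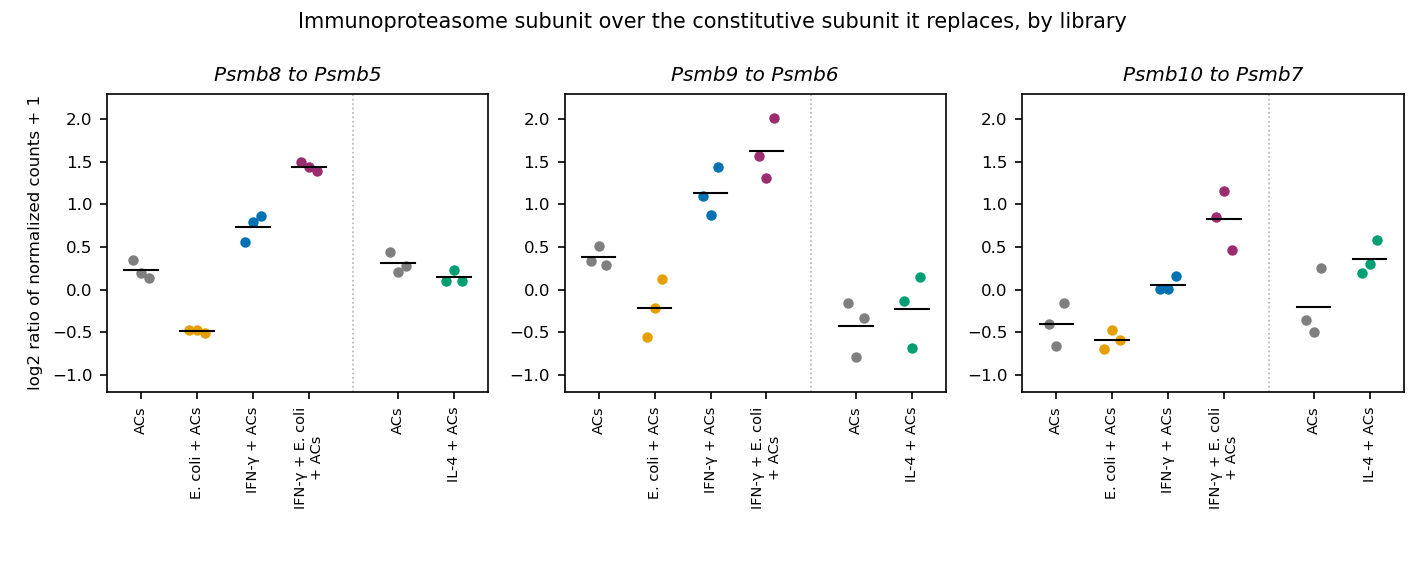
Log2 ratio of each immunoproteasome subunit to the constitutive subunit it replaces, with a point per library and a line at each group mean of 3. The ratio of Psmb8 to Psmb5 was lowest with E. coli + ACs (-0.50 to -0.47) and highest with IFN-γ + E. coli + ACs (1.39 to 1.5).

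Both sides of the ratio moved. With E. coli + ACs, Psmb5 rose by 0.82 on the log2 scale (SE 0.12, limma adjusted p = 8.6e-05), from 784, 860 and 731 normalized counts with ACs to 1405, 1381 and 1403. Psmb8 then differed by 0.11 (limma adjusted p = 0.65). With IFN-γ + ACs the 3 constitutive subunits rose as well, Psmb5 by 0.60, Psmb6 by 0.59 and Psmb7 by 0.75 on the log2 scale. The calls of Psmb5 and Psmb6 were lost after rescaling to a common upper quartile, at 0.51 and 0.50. They were also lost when ACs replicate 3 or IFN-γ + ACs replicate 2 was left out (0.54 and 0.55 for Psmb5, 0.55 and 0.49 for Psmb6), and that of Psmb5 with edgeR (0.58). With IFN-γ + E. coli + ACs, where immunoproteasome subunits were as high or higher, the constitutive ones differed from ACs by 0.28 (Psmb5), 0.09 (Psmb6) and 0.07 (Psmb7), none past the threshold. Set against E. coli + ACs, the log2 change of all 3 with IFN-γ + E. coli + ACs was negative. With each library left out in turn it was -0.66 to -0.46 for Psmb5, -0.59 to -0.26 for Psmb6 and -0.41 to -0.21 for Psmb7. The effect of IFN-γ on all 3 was thus lower with E. coli than without, by -1.14 for Psmb5 (SE 0.17, limma adjusted p = 0.00034), -1.03 for Psmb6 (SE 0.25, limma adjusted p = 0.016) and -1.03 for Psmb7 (SE 0.20, limma adjusted p = 0.0036). For Psmb6 that call was lost without E. coli + ACs replicate 1 (-0.86) or IFN-γ + ACs replicate 2 (-0.92).

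Whether E. coli added to what IFN-γ did was read from IFN-γ + E. coli + ACs against IFN-γ + ACs. There 2 of the 10 rose (5.96% of genes tested called higher, 8.61% lower), Nlrc5 by 0.87 (SE 0.14, limma adjusted p = 0.00024) and Tap2 by 0.83 (SE 0.13, limma adjusted p = 0.00016) on the log2 scale. Tap1 (0.46), Tapbp (0.40) and Psmb8 (0.39) were above IFN-γ + ACs without overlap and below 1.5-fold, so that 5 of 10 were apart (14.2% of genes tested above, 15.3% below). H2-K1, H2-D1, B2m, Psmb9 and Psmb10 differed by -0.10 to 0.12 and overlapped. Tapbp was at 0.22 without IFN-γ + E. coli + ACs replicate 1. Differences between the genes were not tested. In this comparison same-numbered libraries of the groups deviated together (r of 0.17 to 0.25), and with the number as a block in a fit of these groups alone, chosen after seeing the data, Nlrc5 and Tap2 were again the only ones called.

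The same bacteria without IFN-γ gave another order. With E. coli + ACs, Nlrc5 was 193, 197 and 183, against 179.7, 205 and 190.0 with ACs, and Tap2 was 365, 317 and 355, below the 3 ACs libraries. Neither passed the test (log2 changes of 0 and -0.22, limma adjusted p = 0.99 and 0.3). The interaction term, which asks whether the effect of IFN-γ differed with and without E. coli, was 0.87 for Nlrc5 (SE 0.20, limma adjusted p = 0.011) and 1.05 for Tap2 (SE 0.18, limma adjusted p = 0.0014). These were 2 of the 10, against 3.16% of genes tested called higher and 4.28% lower for this term. It ranged from -0.26 (H2-D1) to 0.32 (Tap1) in the other 8 and none of those passed the test. Leaving out each library in turn, the term stayed between 0.72 and 1.02 for Nlrc5 and between 0.97 and 1.17 for Tap2, and both kept their call. Among the other pathway genes, Erap1, an aminopeptidase that trims peptides in the endoplasmic reticulum, had a term of 0.74 (SE 0.22, limma adjusted p = 0.043), a call that was lost with the replicate number as a block, in 1 fit of all 18 libraries, and without any single library but IFN-γ + ACs replicate 3 or IFN-γ + E. coli + ACs replicate 2 (0.64 to 0.8).

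**Figure D4:**
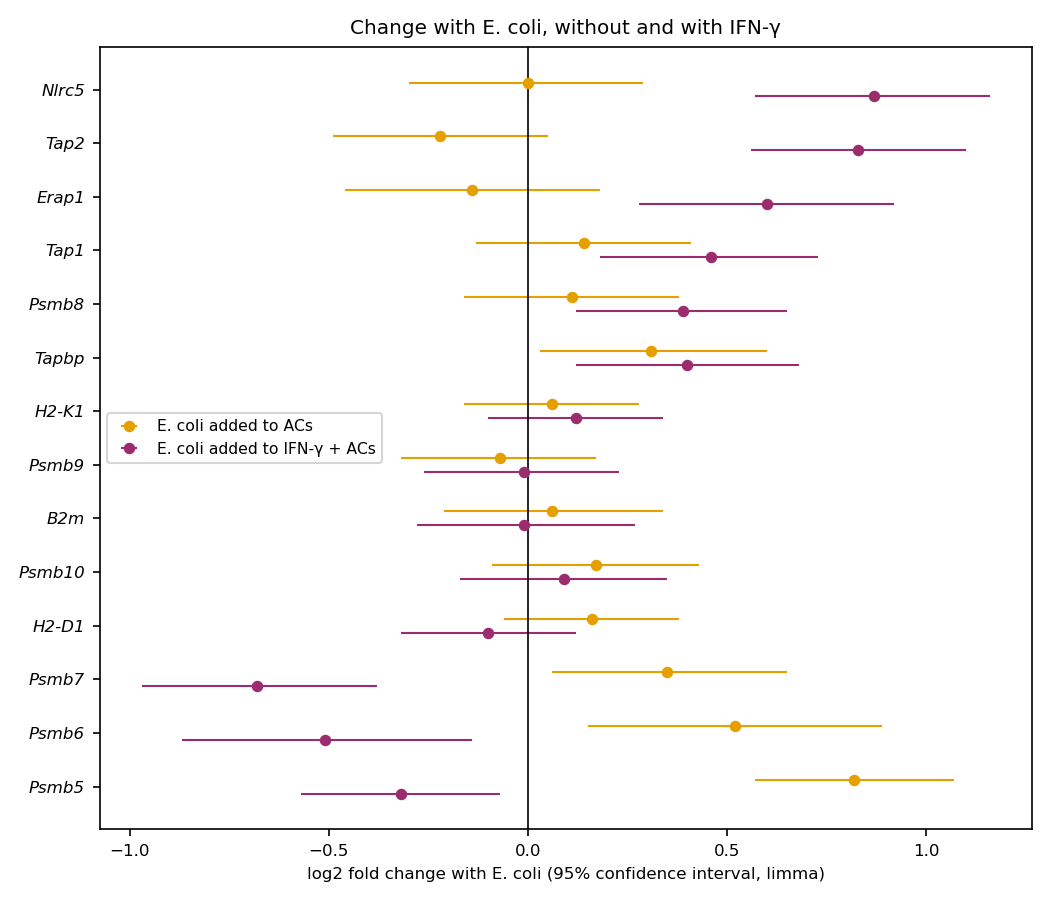
Log2 fold change with E. coli, added to ACs or to IFN-γ + ACs, for the 10 genes, Erap1 and the constitutive subunits, with 95% confidence intervals from limma. Nlrc5 (0 without and 0.87 with IFN-γ) and Tap2 (-0.22 and 0.83) moved up with E. coli in the presence of IFN-γ, and Psmb5 (0.82 and -0.32) changed sign.

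With E. coli + ACs against ACs the 10 spanned -0.22 to 0.31 on the log2 scale. H2-D1, Tapbp and Psmb10 lay above ACs without overlap (19.9% of genes tested did) and Tap2 lay below (18.4%). At an unadjusted p under 0.05 only Tapbp stood out (0.31, limma adjusted p = 0.14), and neither edgeR nor DESeq2 called any of the 10. The 95% intervals of all 10 lay within -0.49 and 0.60. Set directly against E. coli + ACs, IFN-γ + ACs was higher in 8 of 10 (9.84% of genes tested called higher, 6.72% lower), all 10 without overlap (19.4% of genes above, 17.4% below). Tapbp (0.60) fell short of 1.5-fold with edgeR and DESeq2 (0.58 in both), after rescaling to a common upper quartile (0.54), and without E. coli + ACs replicate 1 or 2 or IFN-γ + ACs replicate 3 (0.54 to 0.58). IFN-γ + E. coli + ACs was higher than E. coli + ACs in 8 of 10 (9.79% of genes tested called higher, 9.57% lower), from 0.83 for B2m to 2.67 for Nlrc5, with H2-K1 at 0.53 and H2-D1 at 0.18 below the threshold.

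With IL-4 + ACs, by contrast, the 10 spanned -0.23 to 0.49 on the log2 scale and 9 of 10 overlapped their own ACs. Nlrc5 had 99.1, 83.2 and 92.5 with IL-4 + ACs and 82.0, 77.1 and 118 with ACs. B2m had 18711, 17976 and 24559 with IL-4 + ACs and 18158, 16306 and 21108 with ACs. For both genes the groups overlapped. Tap2 (324, 349 and 344 against 377, 365 and 386) was below without overlap, as 8.84% of genes tested were, with 8.45% above, with a log2 change of -0.15 (limma adjusted p = 0.76). Psmb10 (447, 488 and 714 against 347, 341 and 472) was the only one at an unadjusted p under 0.05 (0.49, SE 0.21, limma adjusted p = 0.5), and neither edgeR nor DESeq2 called any of the 10. The 95% intervals reached from -0.53 (H2-D1) to 0.96 (Psmb10), so changes within those bounds may have been missed.

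The effect of IL-4 minus the effect of IFN-γ, each against its own ACs, was called lower in all 10 (8.09% of 10414 genes tested called lower, 6.17% higher), from -0.63 for H2-D1 to -1.79 for Nlrc5 (SE 0.24, limma adjusted p = 1.5e-05). The calls of H2-D1 (-0.55), H2-K1 (-0.56) and Psmb10 (-0.63) were lost after rescaling to a common upper quartile. That of Psmb10 was also lost without any single ACs library of the Type 1 experiment, IFN-γ + ACs replicate 2 or 3, IL-4 + ACs replicate 1 or 2 or ACs replicate 3 of the IL-4 experiment (-0.73 to -0.56). H2-D1 lost its call without IFN-γ + ACs replicate 2, IL-4 + ACs replicate 1 or 2 or that same ACs library (-0.58 to -0.54), and B2m without ACs replicate 3 of the Type 1 experiment (-0.69). The ACs libraries of the experiments also differed in level without stimulus. H2-D1 was 15064 to 16606 in the Type 1 experiment and 8576 to 9645 in the IL-4 experiment, and Nlrc5 was 179.7 to 205 and 77.1 to 118. Tapbp went the other way, with 2307 to 2626 and 4167 to 4582. These levels were not tested, since experiment and group cannot be told apart.

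Other genes of the pathway were counted from lists. Of 16 further class I heavy chains and relatives, 9 were tested and 4 rose with IFN-γ + ACs (11.4% of all genes tested), H2-T23 by 0.93, H2-Q7 by 0.83, H2-Q6 by 0.75 and H2-T22 by 0.67 on the log2 scale (limma adjusted p = 5.9e-06, 2e-05, 0.0022 and 0.0022), and none fell. H2-T23 encodes Qa-1, a ligand of inhibitory receptors of NK cells. The call of H2-T22 was lost without IFN-γ + ACs replicate 2 (0.55) and after rescaling to a common upper quartile (0.58). Their 3' ends were not checked for stretches shared with other genes. With both stimuli 3 rose and 1 fell (14.7% and 17.2% of all genes), the latter being Cd1d1, which presents lipids, from a mean of 41.5 to 11.4 normalized counts. It fell with E. coli + ACs as well, to 7.33.

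Of 14 genes of peptide trimming and loading, 13 were tested and 5 rose with IFN-γ + ACs, with none lower (11.4% and 9.96% of all genes tested). Lap3, a cytosolic leucine aminopeptidase, had a mean of 161 normalized counts with ACs and 814 with IFN-γ + ACs, a rise of 2.33 on the log2 scale (SE 0.12, limma adjusted p = 5.3e-11) against at most 1.80 among the 10. Tapbpl, which encodes the tapasin relative TAPBPR, rose by 1.71 (SE 0.16, limma adjusted p = 1.6e-07), Erap1 by 0.74 (SE 0.15, limma adjusted p = 0.0012) and Calr, the chaperone calreticulin of the loading complex, by 0.76 (SE 0.16, limma adjusted p = 0.0013). With E. coli added to IFN-γ, Erap1 stood higher still, by 0.60. That call was lost without IFN-γ + ACs replicate 1 or 2 or IFN-γ + E. coli + ACs replicate 1 or 3 (0.5 to 0.58), and at 0.55 after rescaling to a common upper quartile. The chaperones Calr (-1.17), Hspa5 (-0.75) and Pdia3 (-0.72) were lower than with IFN-γ + ACs. Tap2 was up and these chaperones were down in the same comparison.

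Of 9 genes of proteasome activation and assembly, 3 rose with IFN-γ + ACs (11.4% of all genes tested). Psme2 and Psme1 encode the PA28 cap, which opens the proteasome, and rose by 1.57 (SE 0.15, limma adjusted p = 1.6e-07) and 1.17 (SE 0.11, limma adjusted p = 2.2e-07). Pomp, a chaperone that builds new proteasomes, rose by 0.89 (SE 0.13, limma adjusted p = 5.2e-05). With both stimuli 5 rose and 3 fell (14.7% and 17.2% of all genes), the latter being the assembly chaperones Psmg1 (-1.43), Psmg2 (-1.66) and Psmg3 (-0.67). Those 3 had means of 50.1, 38.4 and 111 normalized counts with ACs, and the call of Psmg3 was lost without ACs replicate 1 (-0.52). Of the 14 constitutive genes of the core, 2 rose with E. coli (Psmb5 and Psma5), 8 with IFN-γ and 2 with both stimuli (Psma5 and Psma2), against 5.05%, 11.4% and 14.7% of all genes tested, so that 2 of 14 is no more than the share of all genes for both stimuli. With both, the call of Psma2 (0.71) was lost without IFN-γ + E. coli + ACs replicate 3 (0.56) and after rescaling (0.57). Psma5, an outer-ring subunit, rose by 1.51 with IFN-γ (SE 0.14, limma adjusted p = 1.4e-07), against at most 1.35 for the 3 immunoproteasome subunits.

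**Figure D5:**
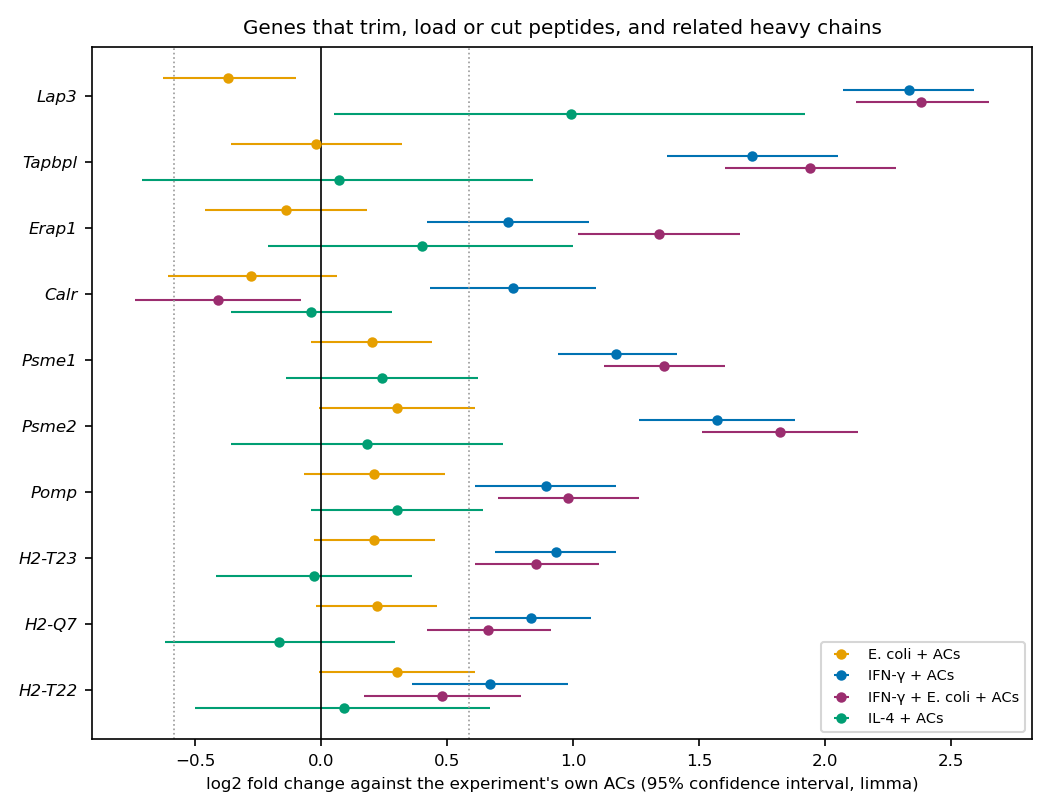
Log2 fold change against the ACs of the same experiment for genes of trimming, loading, activation and assembly and for related heavy chains, with 95% confidence intervals from limma and dotted lines at 1.5-fold. Lap3 (2.33), Tapbpl (1.71) and Psme2 (1.57) rose most with IFN-γ, and Calr was higher with IFN-γ (0.76) and not with IFN-γ + E. coli (-0.41).

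Among 11 genes of the IFN-γ receptor, JAK kinases and IRF factors, 4 rose and 1 fell with IFN-γ + ACs (11.4% and 9.96% of all genes tested). Irf1, a transcription factor of class I promoters, rose by 2.49 (SE 0.12, limma adjusted p = 6.8e-12) and Irf8 by 2.56 (SE 0.25, limma adjusted p = 2.1e-07). Socs1, a feedback inhibitor, rose by 1.48. With E. coli added, Irf8 was lower than with IFN-γ + ACs by -1.53 (SE 0.25, limma adjusted p = 0.00022), while Nlrc5 and Tap2 were higher. Ifngr1, the ligand-binding chain of the receptor, was lower with IFN-γ by -0.60, a call lost without ACs replicate 2 or 3 or IFN-γ + ACs replicate 1 or 2 (-0.58 to -0.51). Of 9 genes for the class I promoter complex (RFX, NF-Y and CREB family), Ciita, the class II transactivator, passed the filter on low values only through IFN-γ + ACs, so its values are a description. It had 0 to 3.3 normalized counts with ACs, where 3 reads stood for 2.44 to 2.82, 23.7 to 37.8 with IFN-γ + ACs and a mean of 8.54 with both stimuli. Of the other 8, none was called with IFN-γ. Nfya rose with both stimuli (0.85), where 14.7% of all genes tested were called higher, so this call does not set the 8 apart. Of 10 genes of cross-presentation, none rose and Wdfy4 fell with IFN-γ (-1.83), counts near the 11.4% and 9.96% of all genes tested. With both stimuli 5 rose (14.7% of all genes), among them Rab27a (0.93), Sec22b (0.87) and Cybb (0.69, lost at 0.55 after rescaling to a common upper quartile). Wdfy4 fell there too (-1.31), 1 of 10, which is below the 17.2% of all genes tested called lower. In the IL-4 experiment no gene of any of these lists was called.

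Markers of other cells and of general expression were read beside these results. Macrophage markers, 8 genes with Lyz2 and C1qb among them and none at 0, summed to 10141 to 12670 normalized counts with ACs, 16938 to 21232 with IFN-γ + ACs and 8462 to 9811 with both stimuli. With E. coli + ACs the macrophage markers summed to 7111 to 8612. In the IL-4 experiment they summed to 18439 to 24705 with ACs and 14501 to 25052 with IL-4 + ACs. Dendritic cell markers (5 genes) summed to 11.4 to 26.3 with ACs and 10.3 to 39.0 with IFN-γ + ACs, where Flt3 and Cd209a were at 0. In the Type 1 libraries these markers summed to no more than 39.0, and B cell markers (4 genes) to no more than 89.9. Mast cell markers (4 genes) summed to 5.64 to 19.5 with ACs, 20.2 to 36.0 with E. coli + ACs, 26.7 to 65.3 with IFN-γ + ACs and 35.6 to 63.5 with both stimuli. Neutrophil markers summed to 46.5 to 64.8 with ACs, 132 to 185 with IFN-γ + ACs and 138 to 207 with both stimuli. They were highest with E. coli + ACs (263 to 393). Mpo and Elane were at 0 in each of these groups but ACs. The part of these cells in the results was not tested. Of 8 housekeeping genes, Pgk1 (2.60), Gapdh (1.33) and Hprt (0.90) rose with IFN-γ + ACs, and the median of the list was 0.17. Rescaling to a common upper quartile took the share of calls that were higher from 53.4% to 43.7% with IFN-γ + ACs, which turned the majority. It moved the median of all genes by -0.14 in IFN-γ + E. coli + ACs against ACs and the share of calls that were higher from 46.1% to 34.4%. Against E. coli + ACs that share went from 50.6% to 36.3%.

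The genes whose pattern over the 18 libraries was most like the mean of the 10, each centred on its own ACs, were Gbp2 (Pearson r = 0.99), Irf1 (0.986), Igtp (0.985), Irgm2 (0.983), AW112010 (0.982), Psme2 (0.981) and Psme1 (0.981), among 6896 genes compared. The libraries share groups, so r is given as a description only. Gbp2, a guanylate-binding protein, had a mean of 1448 normalized counts with ACs, 14984 with IFN-γ + ACs and 19199 with both stimuli. As a fold change this was far larger than for any of the 10. Within the 10, each gene was set against the mean of the others. The correlation was highest for Tap1 and Psmb8 (0.98 each) and lowest for H2-D1 (0.78), which was also the gene that moved least.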

How the data were processed

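RNA of eosinophils was sequenced by CEL-Seq2, which counts 3' ends of transcripts, in 18 libraries. Per the labels and the paper, the authors trimmed reads (cutadapt 1.10), aligned them to GRCm38 (TopHat2 2.1.0 with Bowtie2 2.2.6), counted uniquely mapped reads (HTSeq 0.6.1) and divided each count by a DESeq2 size factor. DESeq2 1.26.0 is in the submitters' processing notes, and the methods give other DESeq2 versions and also a route through fastp and STAR, so which run made the table is not settled here. The deposited signal is this normalized count per gene, and tables of all 18 libraries share 1 scaling. Whole reads were recovered for 100.0% of values, within 0.01 read beside rounding or, for large counts, within a small share of the count. For the largest counts that allowance takes in any value. Such counts favour no gene for its length, but levels of different genes were not compared.

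Genes whose normalized count averaged at least 10 were tested with limma 3.58.1 (R 4.3.3, eBayes with trend) on log2(normalized count + 1), so fold changes of low genes are understated. The 4 groups of the Type 1 experiment were fitted together, those of the IL-4 experiment apart, and the comparison of both effects on all 18. A change was called at a Benjamini-Hochberg adjusted p under 0.05 over all genes tested and 1.5-fold. Subunit ratios were compared with exact two-sided permutation tests. Alternatives were a pseudocount of 5, other filters, a common upper quartile, the replicate number as a block, edgeR 4.0.16 and DESeq2 1.42.0 on recovered reads (calling 1129 genes higher and 1098 lower, and 1160 and 1055, with IFN-γ + ACs against ACs, where limma called 1160 and 1013), the groups compared alone, all libraries in 1 fit, no fold threshold and each library left out. Fits were tested on simulated data. Same-numbered libraries deviated together (every r above 0.1) between IFN-γ + ACs and IFN-γ + E. coli + ACs only, as read from the data. Replicates differed by more than counting error (chi-square per degree of freedom 3.92 to 13.15), so none was counted as a duplicate, and intervals of counts would cover counting error only. Identifiers matched symbols of GENCODE M21 for 54409 of 54446 genes, 53229 with the same version. Named are the 10 genes, Psmb5, Psmb6, Psmb7, Psme1, Psme2, Erap1 and Tapbpl, up to 4 called genes per list and comparison by size of change, the most abundant uncalled ones, and the 8 genes most like the mean of the 10, of which 1 is not reported here. In trimming and loading with IFN-γ, Npepps (0.76) was level with Calr. Members and lists were chosen with earlier results of these data known.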

Additional observations from a re-analysis of the deposited data

Results flagged for a closer look

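The effect of IFN-γ differed with and without E. coli for 2 of the 10 genes, by the interaction term of the limma fit on 12 libraries. The term was 0.87 on the log2 scale for Nlrc5 (95% interval 0.45 to 1.29) and 1.05 for Tap2 (0.67 to 1.44). Without E. coli, IFN-γ raised Nlrc5 by 1.80 and Tap2 by 0.70, and in its presence by 2.67 and 1.76. All 3 IFN-γ + E. coli + ACs libraries were above all 3 IFN-γ + ACs libraries for both genes. For Tap1, the partner of Tap2, the term was 0.32 (95% interval -0.07 to 0.70) and did not pass the test. Groups of 3 libraries are too small for a test of single outlying libraries.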

How the results depend on the processing

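Over 90 pairs of gene and comparison, 1932 of 1970 alternative values kept their side of the threshold, 29 lost a call and 9 gained one. None that was called in either fit reversed its direction. Uncalled changes near 0 could switch sign, as for Nlrc5 with E. coli + ACs (-0.05 to 0.05 with each library left out). Without a fold threshold, 5 of the 10 genes in place of 2 were higher with IFN-γ + E. coli + ACs than with IFN-γ + ACs. These were Tapbp, Psmb8 and Tap1 beside Nlrc5 and Tap2. Of all 10166 genes tested, 963 were then higher and 1043 lower, in place of 606 and 875. With each library left out in turn, 8 genes were higher with IFN-γ + ACs throughout, 8 to 9 with IFN-γ + E. coli + ACs, 8 to 9 against E. coli + ACs, 7 to 8 for IFN-γ + ACs against E. coli + ACs, and 8 to 10 were lower for IL-4 minus IFN-γ. In that last comparison H2-D1, Psmb10 and B2m lost their call when all genes with any value above 0 were tested. Deviations of same-numbered libraries from their group means correlated at 0.17 to 0.25 between IFN-γ + ACs and IFN-γ + E. coli + ACs. Between the other groups compared they correlated at -0.12 to 0.12, and pairs with different numbers reached 0.15. Whether the numbers pair the samples is not settled. Same-numbered libraries thus deviated together in IFN-γ + E. coli + ACs against IFN-γ + ACs alone. The replicate block changed no call of the 10 genes. In that comparison, a fit of its groups alone with the block, added after seeing the data, called 556 genes higher and 705 lower in place of 606 and 875, and 2 of the 10 as before. Over all genes in IL-4 + ACs against ACs it left 45 higher and 29 lower in place of 79 and 37, edgeR gave 127 and 85, DESeq2 128 and 81, all genes with any value above 0 gave 125 and 83, 1 fit of all libraries 116 and 105, and leaving out both shallow libraries 345 and 311. None of these called any of the 10 genes. Leaving out 1 of the deeper IL-4 experiment libraries left 47 to 62 calls in place of 116. For the interaction term over all genes, 1 fit of all libraries gave 495 calls in place of 756, and leaving out ACs replicate 3, E. coli + ACs replicate 1 or IFN-γ + ACs replicate 2 gave 439, 400 and 486. The cause was not tested, and Nlrc5 and Tap2 kept their call in each.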
